A study of Mus musculus with 8 samples.

Results

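The Hedgehog pathway genes described here were 9 genes chosen by name: the receptor Ptch1, the ligand-binding protein Hhip, the transducer Smo, the transcription factors Gli1, Gli2 and Gli3, and the regulators Sufu, Kif7 and Gpr161. All 9 were among the 31053 Ensembl genes listed for each library, and all 9 were among the 12889 genes that could be tested. RNA of RPE, the pigmented epithelium behind the photoreceptors, was sequenced at P29 in 4 libraries from Bbs8+/+ (wild type) mice and 4 from Bbs8-/- (knockout) litter mates. The labels give the strain as C57/Bl6, no treatment and an undetermined sex for both genotypes. The study counted each animal as a biological replicate, so n was 4 per genotype throughout. The deletion was carried in the whole animal, photoreceptors included. Bbs8 is a subunit of the BBSome, a complex that moves membrane proteins in and out of cilia. Each comparison below asked whether the RNA level of a Hedgehog gene differed between Bbs8-/- and Bbs8+/+ RPE.

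In vertebrates Hedgehog signalling runs through the primary cilium. Without ligand, Patched keeps Smoothened out of the cilium, Gpr161 holds cAMP and protein kinase A activity up there, and Sufu and Kif7 help to turn Gli2 and Gli3 into repressors. When a Hedgehog ligand binds Patched, Smoothened enters the cilium, Gli activators form, and Gli1, Ptch1 and Hhip are transcribed, which makes these genes the usual readout of the pathway. In the eye, Hedgehog ligands are known for their part in patterning the optic vesicle and in the development of the retina and the RPE.

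Libraries held 2389835 to 3093428 counts on genes. Values are given as counts of reads per gene or as CPM, the count relative to the size of its library, scaled by TMM, a factor that adjusts for library composition. The 3′ protocol reads the end of each transcript, so CPM was not divided by length, and the genes are set against the counting floor rather than against each other. The floor, 3 counts, was 1.02 to 1.23 CPM depending on the library, and it covers counting error only. Ttc8, the gene that encodes Bbs8, had 105, 142, 144 and 116 counts in Bbs8+/+ and 15, 5, 14 and 15 in Bbs8-/- libraries, a log2 fold change of -3.34 (SE 0.294, edgeR quasi-likelihood adjusted p = 2.47e-11). The RPE marker Rpe65, the visual cycle isomerase, was at 4640 ± 211 CPM (SD) in Bbs8+/+ and 3916 ± 38.1 CPM in Bbs8-/- RPE, while Best1, a chloride channel also used as an RPE marker, was near the floor, with 0 to 5 counts in each library. Summed over their marker lists, RPE genes were at 35347 to 36363 CPM in Bbs8+/+ and 43604 to 47077 CPM in Bbs8-/- libraries. The rise of this sum was carried by Ttr, the gene of the thyroid hormone and retinol carrier transthyretin, at 20932 ± 540 and 31748 ± 1397 CPM, while 6 of the 9 RPE genes had a negative fold change. Photoreceptor genes were at 55058 to 59400 and 22568 to 23141 CPM, and lens genes at 2686 to 2930 and 367 to 418 CPM. Erythrocyte genes were at 5152 to 5717 and 1985 to 2217 CPM, and reactive glia genes at 46.4 to 78.1 and 800 to 886 CPM. The marker genes passing edgeR's test in Bbs8-/- RPE were 1 higher and 3 lower of 9 for RPE, 2 higher and 13 lower of 16 for photoreceptors, 10 of 10 lower for lens, 5 of 5 lower for erythrocytes and 5 of 6 higher for reactive glia. Müller glia markers summed to 1184 to 1412 CPM in Bbs8+/+ and 1746 to 1896 CPM in Bbs8-/- libraries, with 1 of 6, Glul, higher. The rise of this sum was carried by Glul, at 1199 ± 80.0 and 1709 ± 57.5 CPM. Vim, the next highest in CPM, was at 114 ± 22.8 and 100 ± 22.8 CPM and did not pass, while 5 of the 6 genes had a positive fold change. Summed fibroblast markers overlapped between genotypes, at 1044 to 1397 and 975 to 1166 CPM, with 2 of 8 lower, and so did those of endothelium, at 21.2 to 36.2 and 25.0 to 36.3 CPM. In such tissue RNA, fewer cells of a type, less RNA per cell and a different carry-over of neighbouring tissue cannot be told apart. The study reported contamination by photoreceptor tissue. From which cells the reads of the Hedgehog genes came was not tested.

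None of the 9 genes passed the test. Over all genes tested, 1581 (12.3%) passed an adjusted p of 0.05, 704 (5.46%) higher and 877 (6.80%) lower in Bbs8-/- RPE. With library size alone in place of TMM, the split over all genes was 1005 higher and 657 lower. By edgeR's quasi-likelihood test 1 of the 9 genes, Kif7, had an unadjusted p under 0.05, as had 3016 of all 12889 genes tested. DESeq2 also called 0 of the 9 genes, again with 1 at an unadjusted p under 0.05. Over all genes tested DESeq2 called 724 higher and 880 lower. The 4 Bbs8-/- libraries overlapped with the 4 Bbs8+/+ libraries for each of the 9 genes, whereas the genotypes did not overlap for 2068 (16.0%) of all genes tested. The fitted log2 fold change was positive for 6 of the genes and negative for 3, beside 6677 positive and 6212 negative over all genes tested. Its median was 0.38 beside 0.02 over all genes tested. The largest values, 2.07 for Kif7 and 1.63 for Gpr161, rested on 48 and 30 counts over the 8 libraries.

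**Figure D1:**
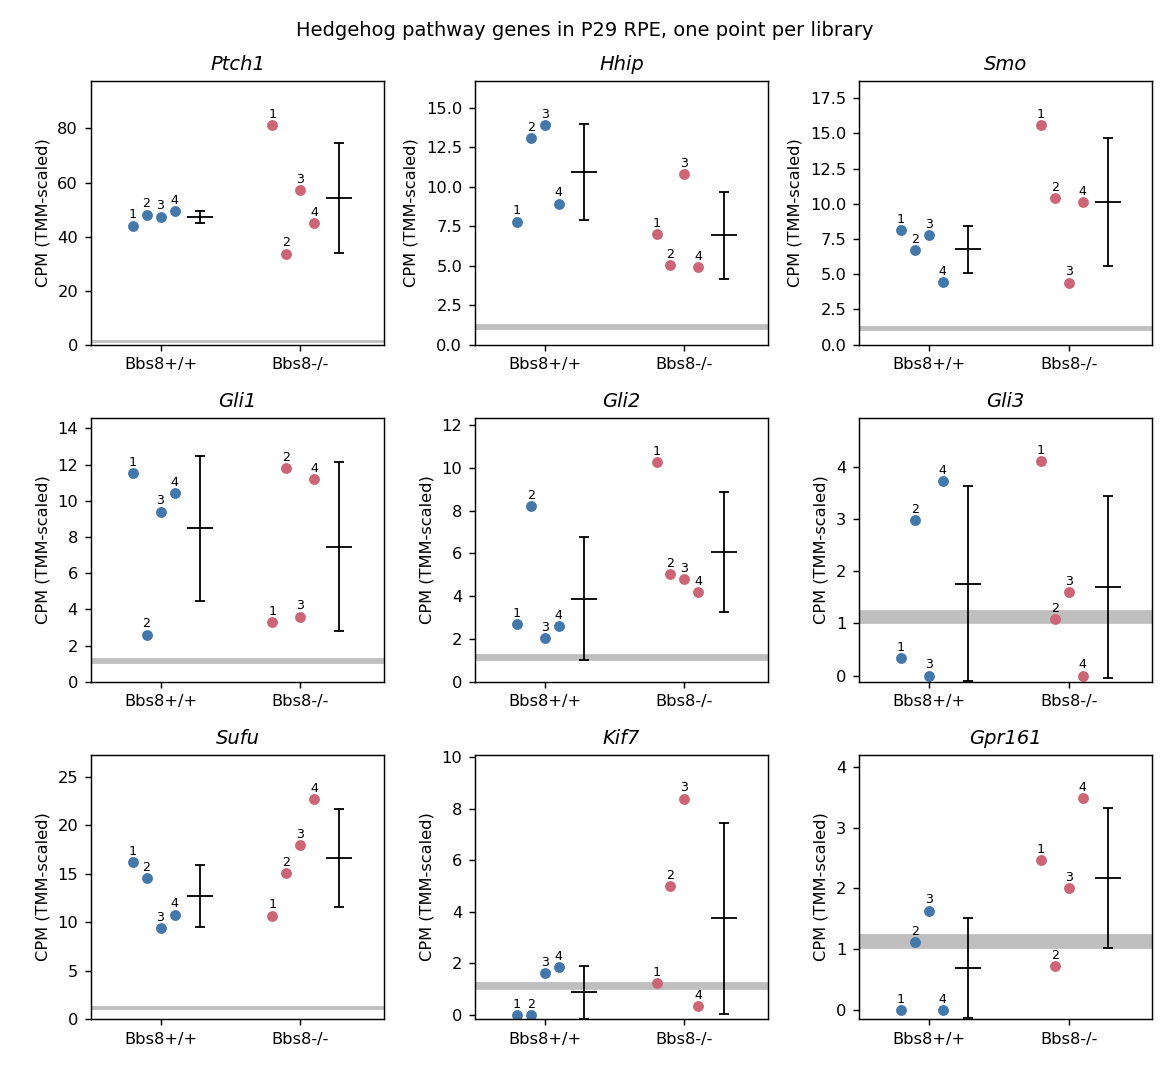
Level of the 9 Hedgehog genes in CPM (TMM-scaled, linear axes) in each of the 4 Bbs8+/+ (blue) and 4 Bbs8-/- (red) libraries, numbered by replicate. Black bars are the mean ± SD and the grey band is the floor of 3 counts. In every panel the 2 genotypes overlap, and Gli3, Kif7 and Gpr161 have libraries at or under the floor.

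Ptch1 (ENSMUSG00000021466; GRCm38 chromosome 13, 63508328 to 63573598, minus strand), the receptor that holds Smoothened in check and is itself transcribed when the pathway is active, had the most counts of the 9 genes, 1072 over the 8 libraries. It was at 44.0, 48.1, 47.4 and 49.4 CPM in Bbs8+/+ and at 81.3, 33.7, 57.2 and 45.1 CPM in Bbs8-/- RPE. The Bbs8+/+ libraries lay close together, and the Bbs8-/- libraries lay on both sides of them. The means were 47.2 ± 2.31 and 54.3 ± 20.4 CPM (SD, n = 4), and the fitted log2 fold change was 0.20 (SE 0.196, 95% interval -0.20 to 0.59, edgeR adjusted p = 0.613, exact permutation p = 0.686). The interval corresponds to 0.870 to 1.51 times the Bbs8+/+ level. Ptch1 was the only one of the 9 genes whose interval lay within a 2-fold change in either direction. Replicate 1 of Bbs8-/-, with 198 counts, was the highest of the 8 libraries, and without it the log2 fold change turned to -0.06. The variance of the raw counts was 0.446 times their mean in Bbs8+/+ and 13.3 times their mean in Bbs8-/- libraries. Counting error alone gives a ratio near 1 for libraries of equal size, and the unequal sizes here add to it.

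Because Ptch1 is a direct target of the Gli factors, the 250 bases before its start site in RefSeq's GRCm38.p6 annotation (chr13:63565736-63565985, minus strand, written 5′ to 3′) are shown as the region upstream of a usual readout of the pathway. The start lies inside the gene as drawn by the coordinates above, which take in longer transcripts.
Ptch1: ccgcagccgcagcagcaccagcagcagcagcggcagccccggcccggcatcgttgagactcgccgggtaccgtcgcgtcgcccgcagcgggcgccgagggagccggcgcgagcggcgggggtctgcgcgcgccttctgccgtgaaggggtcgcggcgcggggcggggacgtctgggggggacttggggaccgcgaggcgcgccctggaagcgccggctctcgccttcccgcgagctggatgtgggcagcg
RefSeq windows from 250 bases before to 50 after a start site were matched for 8 of the 9 genes, in 9 windows, and Gli1 was not matched. The Gli consensus GACCACCCA, searched on both strands (TGGGTGGTC on the other), was in 0 of these 9 windows and in 83 (0.253%) of the 32851 windows of all genes. A missing match says only that these letters are not in the window.

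Hhip (ENSMUSG00000064325; chromosome 8, 79965851 to 80058006, minus strand), a membrane protein that binds and sequesters Hedgehog ligands and is also a pathway target, had 23, 35, 34 and 24 counts in Bbs8+/+ and 17, 14, 27 and 14 in Bbs8-/- libraries. Of the Bbs8-/- libraries, replicates 1, 2 and 4 lay under all Bbs8+/+ libraries, while replicate 3 lay among them. The level was 10.9 ± 3.01 CPM in Bbs8+/+ and 6.92 ± 2.76 CPM in Bbs8-/- RPE (SD, n = 4), and the fitted log2 fold change was -0.66 (SE 0.397, 95% interval -1.46 to 0.15). Neither the edgeR test (adjusted p = 0.339) nor the exact permutation test (p = 0.114) called it. Smo (ENSMUSG00000001761; chromosome 6, 29735503 to 29761365, plus strand), the membrane protein that carries the signal into the cilium, had 24, 18, 19 and 12 counts in Bbs8+/+ and 38, 29, 11 and 29 in Bbs8-/- libraries. Here replicates 1, 2 and 4 of Bbs8-/- lay above all Bbs8+/+ libraries, and replicate 3 was the lowest of the 8. The means were 6.77 ± 1.65 and 10.1 ± 4.58 CPM, a log2 fold change of 0.58 (95% interval -0.26 to 1.42, edgeR adjusted p = 0.444, exact permutation p = 0.257).

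Gli1 (ENSMUSG00000025407; chromosome 10, 127329882 to 127341974, minus strand), the activator whose own transcription reports pathway activity, had 34, 7, 23 and 28 counts in Bbs8+/+ and 8, 33, 9 and 32 in Bbs8-/- libraries. In each genotype the libraries stood apart from one another: replicate 2 of Bbs8+/+ and replicates 1 and 3 of Bbs8-/- were at 2.61 to 3.60 CPM, and the other 5 libraries at 9.40 to 11.8 CPM. The genotype means, 8.48 ± 4.01 and 7.47 ± 4.66 CPM, gave a log2 fold change of -0.17 (SE 0.465, 95% interval -1.11 to 0.77, edgeR adjusted p = 0.882, exact permutation p = 0.971). The variance of the Gli1 counts was 5.83 times the mean in Bbs8+/+ and 9.38 times the mean in Bbs8-/- libraries. Its exons overlap those of Arhgap9 on the opposite strand by 62 bases, and Arhgap9 had 20 counts over all 8 libraries. The strand setting of the counting is not given in the sources used here, so how reads in such stretches were assigned is not known.

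Gli2 (ENSMUSG00000048402; chromosome 1, 118834132 to 119053619, minus strand), the main activator of the pathway, had 8, 22, 5 and 7 counts in Bbs8+/+ and 25, 14, 12 and 12 in Bbs8-/- libraries. One library in each genotype stood above the other 3, replicate 2 of Bbs8+/+ and replicate 1 of Bbs8-/-, and in both of these Gli1 was low. The means were 3.89 ± 2.89 and 6.07 ± 2.82 CPM, a log2 fold change of 0.63 (95% interval -0.53 to 1.79, edgeR adjusted p = 0.573, exact permutation p = 0.371). Gli3 (ENSMUSG00000021318; chromosome 13, 15463235 to 15730026, plus strand), which is processed mainly to the repressor form, had 1, 8, 0 and 10 counts in Bbs8+/+ and 10, 3, 4 and 0 in Bbs8-/- libraries. In each genotype 2 libraries were at or under the floor of 3 counts, and the log2 fold change of -0.08 had a 95% interval from -2.18 to 2.02 (edgeR adjusted p = 0.979).

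Over the 8 libraries, log2 CPM of Gli1 and Gli2 had a Pearson correlation of -0.76, the furthest from 0 of the 36 pairs among the 9 genes. The correlation was -0.67 between Ptch1 and Gli1, -0.62 between Gli1 and Gli3, and 0.60 between Gli2 and Gli3. These are descriptions of 8 points that share their library and its depth, with as few as 0 counts for Gli3 and 5 for Gli2 behind a point, and no test was made of them. For the 2 genes with the highest mean CPM, the genes with the most similar pattern over the 8 libraries, of 8427 with a mean of at least 10 CPM, were Timm8b (r = 0.97), Cdc40 (r = 0.96) and Zbtb21 (r = 0.96) for Ptch1, and Fah (r = 0.94), Gabra4 (r = 0.92) and Iqce (r = 0.92) for Sufu. These are the highest values of a search over 8427 genes with 8 points each, and no test was made of them either.

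Sufu (ENSMUSG00000025231; chromosome 19, 46396896 to 46488804, plus strand), which binds Gli proteins and restrains them, had 48, 39, 23 and 29 counts in Bbs8+/+ and 26, 42, 45 and 65 in Bbs8-/- libraries. The libraries of both genotypes were interleaved, with the lowest in Bbs8+/+ and the highest in Bbs8-/- RPE. The means were 12.7 ± 3.19 and 16.6 ± 5.06 CPM, a log2 fold change of 0.38 (95% interval -0.25 to 1.01, edgeR adjusted p = 0.517, exact permutation p = 0.229).

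Kif7 (ENSMUSG00000050382; chromosome 7, 79698098 to 79715720, minus strand), a kinesin at the tip of the cilium that acts on the Gli factors, had 0, 0, 4 and 5 counts in Bbs8+/+ and 3, 14, 21 and 1 in Bbs8-/- libraries. Replicates 2 and 3 of Bbs8-/- were above all others, and the remaining 2 Bbs8-/- libraries were at or under the floor, as were 2 of Bbs8+/+. The mean was 0.873 ± 1.01 CPM, under the floor, in Bbs8+/+ and 3.75 ± 3.70 CPM in Bbs8-/- RPE. The fitted log2 fold change was 2.07, with a 95% interval from 0.000955 to 4.14 and an edgeR p of 0.0499 before adjustment and 0.213 after it. The exact permutation p was 0.286, and the smallest that 4 against 4 libraries can give is 0.0286. Gpr161 (ENSMUSG00000040836; chromosome 1, 165295789 to 165326745, plus strand), a receptor of the cilium that keeps cAMP up and leaves when Smoothened enters, had 0, 3, 4 and 0 counts in Bbs8+/+ and 6, 2, 5 and 10 in Bbs8-/- libraries. Replicates 1, 3 and 4 of Bbs8-/- were above all Bbs8+/+ libraries, and replicate 2 was among them. The means were 0.689 ± 0.822 and 2.17 ± 1.15 CPM, a fitted log2 fold change of 1.63 (95% interval -0.56 to 3.83, edgeR adjusted p = 0.395, exact permutation p = 0.114). Kif7 shares 51 exonic bases with Ticrr (9 counts over all 8 libraries) and 877 with 9330171B17Rik (0 counts), both on the opposite strand.

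**Figure D2:**
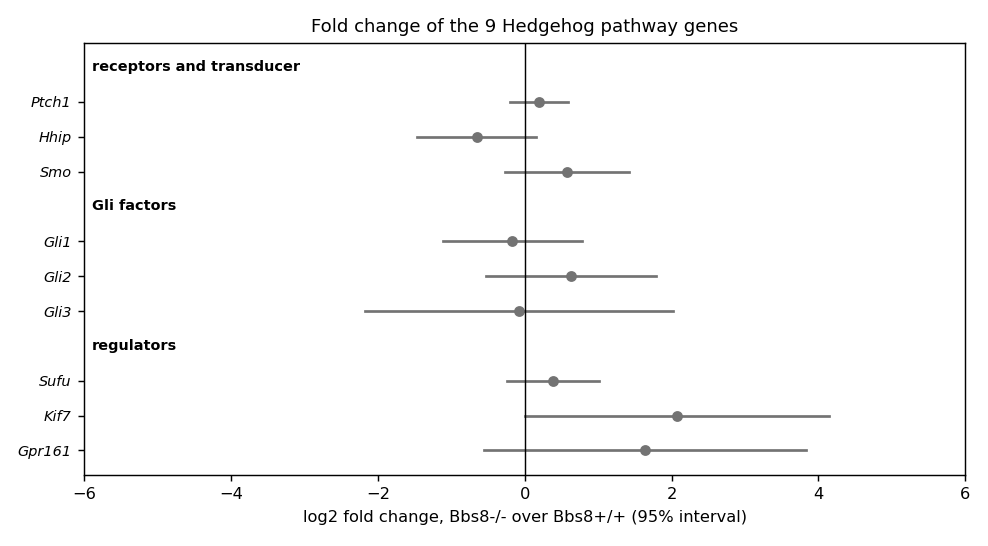
Fitted log2 fold change (Bbs8-/- over Bbs8+/+) of the 9 genes, grouped by role, with the 95% interval derived from edgeR's quasi-likelihood test, n = 4 per genotype. The interval is narrowest for Ptch1 (-0.20 to 0.59) and widest for Kif7, Gpr161 and Gli3; it includes 0 for 8 genes, and the lower bound for Kif7 lies just above 0 before adjustment for the 12889 genes tested.

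Intervals widened and calls became fewer towards low levels. Gli2, Gli3, Kif7 and Gpr161 had a mean under 5 CPM, where 49 (1.78%) of the 2756 genes tested were called and the median distance from the estimate to a bound of its 95% interval was 1.77 on the log2 scale. Hhip, Smo, Gli1 and Sufu lay between 5 and 20 CPM, where 201 (5.18%) of 3880 genes were called with a median distance of 0.75. Ptch1 alone was above 20 CPM, where 1331 (21.3%) of 6253 genes were called with a median distance of 0.35. For 8 of the 9 genes the interval still allowed a 2-fold change in at least 1 direction. Between libraries of a genotype, edgeR's biological coefficient of variation was 0.180 for Ptch1 (0.160 for the trend at its level), 0.401 for Gli1 (trend 0.354), 0.460 for Gli2 (trend 0.458) and 0.781 for Gli3 (trend 0.676).

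**Figure D3:**
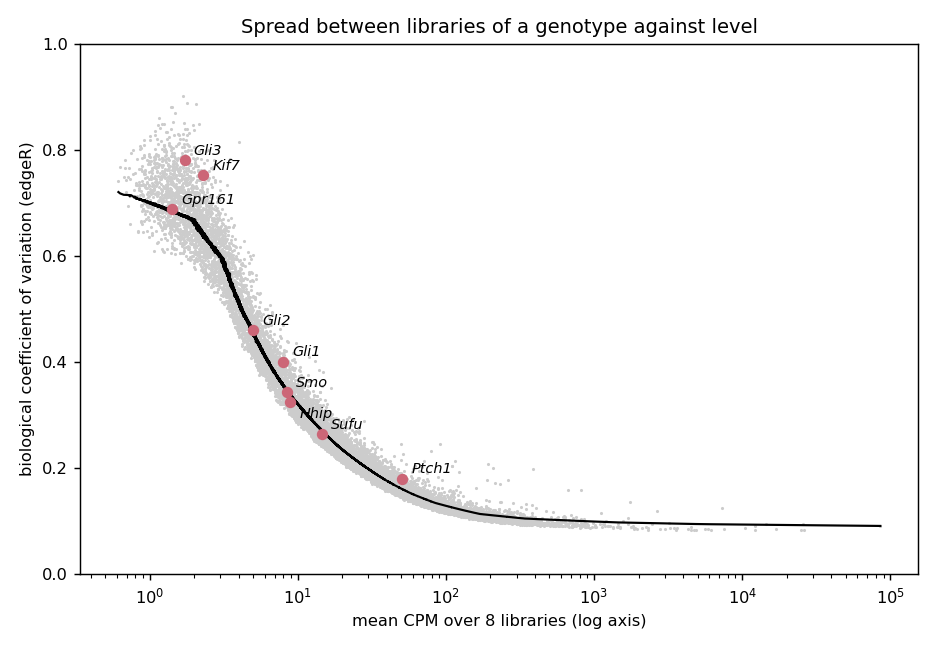
Biological coefficient of variation against mean CPM over 8 libraries (log axis) for the genes tested (grey points), with edgeR's trend (black line) and the 9 Hedgehog genes (red). The spread falls as the level rises, and the 9 genes follow it from Gli3 (0.781) to Ptch1 (0.180). edgeR draws the value of each gene towards this trend, so nearness to the line is partly built in.

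Around these genes, a wider list of 59 Hedgehog genes, from ligands to targets, was read from the same test, and 51 of them could be tested. In Bbs8-/- RPE 5 were higher and 4 lower, 17.6% of the 51, beside 12.3% of all genes tested (5.46% higher and 6.80% lower) and 21.3% of genes at 20 CPM and over. The median mean level of the 51 was 25.3 CPM, and their median log2 fold change was 0.09. For 11 of them the libraries of the genotypes were fully separate, as they were for 16.0% of all genes tested. Of the 3 ligands, Shh had 0 counts in all 8 libraries and Ihh had 1 count in 1 Bbs8-/- library. Dhh had 23, 16, 12 and 23 counts in Bbs8+/+ and 14, 8, 1 and 11 in Bbs8-/- libraries, a log2 fold change of -1.07 (SE 0.58, edgeR adjusted p = 0.270). Part of the Dhh exons, 546 bases, is shared with Rhebl1 on the same strand, so reads there cannot be told apart. Reads that htseq-count set aside as ambiguous, 0.244% to 0.296% of a library, were counted for no gene. Scube3, a secreted protein that helps to release ligands, rose from 14.9 ± 2.61 to 26.9 ± 8.74 CPM, a log2 fold change of 0.86 (edgeR adjusted p = 0.0279), with 62, 55, 57 and 113 counts in Bbs8-/- against 36 to 44 in Bbs8+/+ libraries. It was no longer called without replicate 4 of Bbs8-/- (0.61, adjusted p = 0.194), nor without replicate 1 (adjusted p = 0.0649), 2 (0.0502) or 4 (0.0844) of Bbs8+/+. The other 4 tested genes of this role, Disp1, Hhat, Scube1 and Scube2, did not pass the test.

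Of the 4 co-receptors tested, Lrp2, an endocytic receptor of Hedgehog ligands, was higher, from 91.7 ± 4.52 to 136 ± 5.81 CPM (log2 fold change 0.57, edgeR adjusted p = 0.000585). Boc, Cdon and Gas1, the other co-receptors, did not pass it. Where 3016 of all 12889 genes tested had an unadjusted p under 0.05, 0 of the 9 Smoothened partners did, and none passed edgeR's test. The highest in CPM of these, Mgrn1, a ubiquitin ligase that limits Smoothened, was at 99.4 ± 6.07 and 107 ± 9.17 CPM (edgeR adjusted p = 0.676). In the cAMP arm, 1 of 11 tested genes was higher and 1 lower. Gnas, which encodes the stimulatory G protein alpha subunit that restrains the pathway, rose from 486 ± 48.1 to 674 ± 38.0 CPM (log2 fold change 0.47, edgeR adjusted p = 4.32e-05). Arl13b, a ciliary GTPase needed for normal Hedgehog signalling, fell from 104 ± 20.7 to 60.3 ± 9.15 CPM (log2 fold change -0.78, edgeR adjusted p = 0.000240).

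Among 14 tested genes of Gli processing, 1 passed. This was Spop, a ubiquitin ligase adaptor that directs Gli2 and Gli3 to degradation, which fell from 190 ± 22.2 to 117 ± 3.89 CPM (log2 fold change -0.70, edgeR adjusted p = 9.90e-06). Gsk3b, a kinase that phosphorylates Gli factors for processing and the gene of highest CPM in this role, was at 513 ± 25.3 and 491 ± 25.0 CPM (edgeR adjusted p = 0.704). Csnk1d and Spopl did not overlap between genotypes without passing the test. Of 12 listed target genes, 5 could not be tested, and of the 7 tested 2 were higher and 2 lower. Their median mean level was 215 CPM. Over all genes at 20 CPM and over 21.3% were called, but this band does not match the 7 in level. Foxc2 and Jag2 lay under 5 CPM, where 1.78% were called, and the 4 called genes had means of 215 to 516 CPM. Their share was not tested against genes of like level. Ccnd1, a cyclin of the G1 phase, fell from 282 ± 22.9 to 167 ± 7.45 CPM (log2 fold change -0.76, edgeR adjusted p = 1.87e-07), while its paralogue Ccnd2 rose from 180 ± 23.5 to 250 ± 14.8 CPM (0.47, edgeR adjusted p = 0.00105). Sfrp1, a secreted Wnt antagonist, rose from 459 ± 30.3 to 573 ± 12.7 CPM (0.32, edgeR adjusted p = 0.00396), and Bmp4, a growth factor, fell from 478 ± 44.3 to 391 ± 34.3 CPM (-0.29, edgeR adjusted p = 0.0219). With library size alone in place of TMM, Bmp4 was at -0.20 (adjusted p = 0.141), and it was not called without replicate 4 of Bbs8+/+ (adjusted p = 0.151) or replicate 1 (0.0733) or 2 (0.105) of Bbs8-/-. The exons of Ccnd1 overlap LTO1 (269 counts over all 8 libraries) on the opposite strand by 1100 bases. The marker sums of photoreceptors, lens, erythrocytes and glia given above moved with genotype alongside these 9 calls, and their part in them was not tested.

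**Figure D4:**
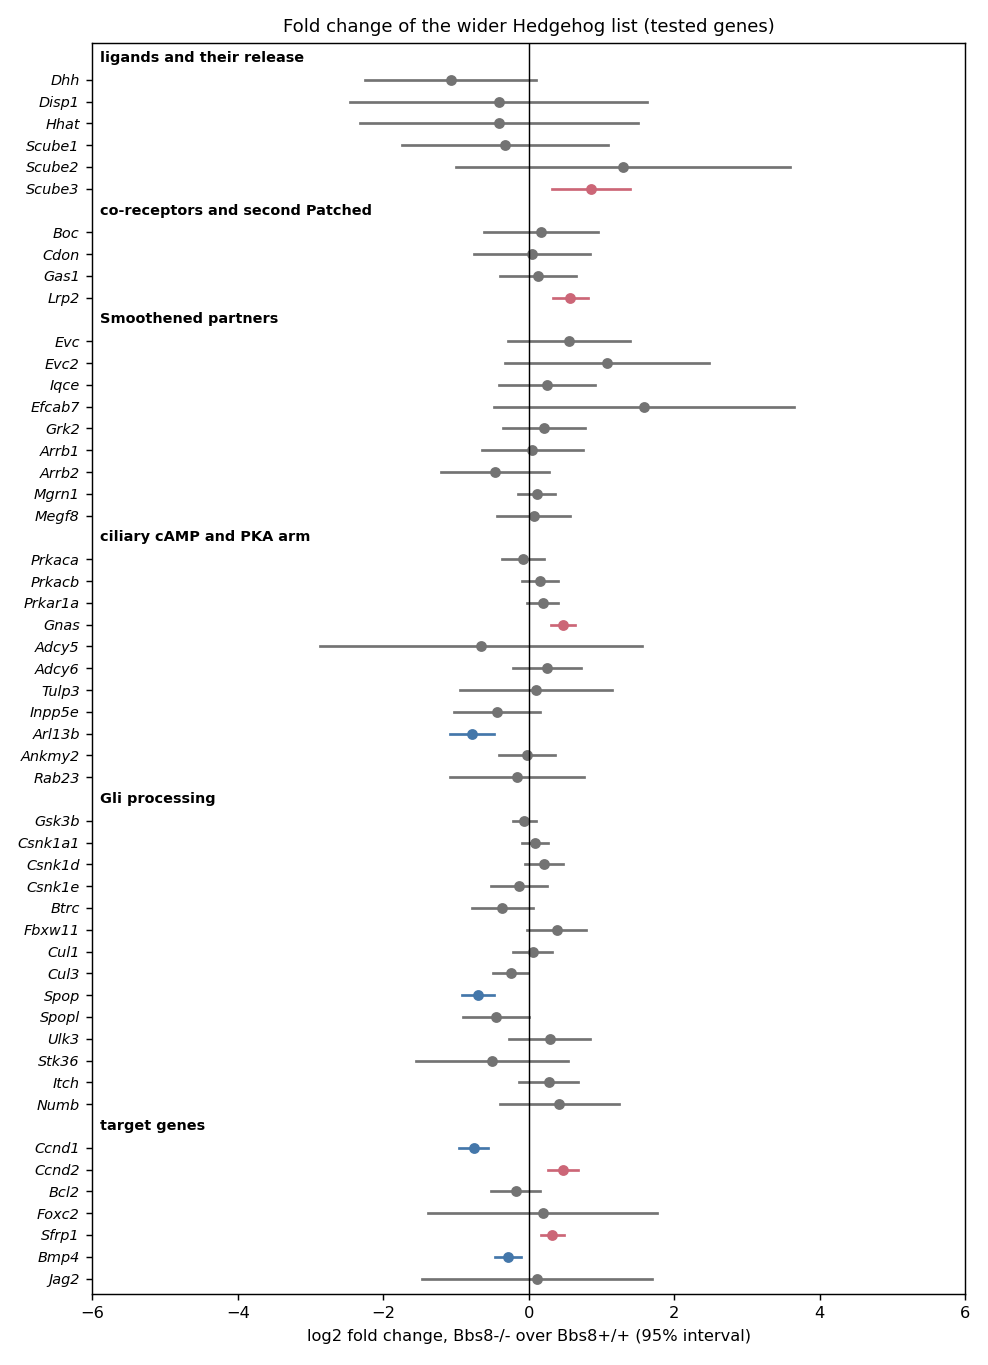
Fitted log2 fold change (Bbs8-/- over Bbs8+/+) with its 95% interval for the 51 tested genes of the wider Hedgehog list, grouped by role. Red marks the 5 genes higher and blue the 4 genes lower at an edgeR adjusted p of 0.05, and grey the 42 that did not pass.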

How the data were processed

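RPE RNA of 4 Bbs8+/+ and 4 Bbs8-/- mice was sequenced with QuantSeq 3′ libraries. The authors trimmed the reads, aligned them with STAR to mm10 and counted uniquely mapped reads per Ensembl gene with htseq-count. The deposited values are these raw counts per library, without normalization. Reads that htseq-count assigned to no gene feature made up 17.0% to 18.4% of the reads in Bbs8+/+ and 19.8% to 20.6% in Bbs8-/- libraries, and reads not mapped uniquely made up 32.8% to 34.5%. Both stayed out of library sizes and tests.

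Symbols and gene positions came from a GRCm38 GENCODE annotation (30934 of 31053 identifiers named) and promoter windows from RefSeq. In R 4.3.3, genes were kept if 4 or more of the 8 libraries reached 1 CPM, which left 12889. These were scaled by TMM and compared by the two-sided quasi-likelihood test of edgeR 4.0.16. P-values were adjusted over all of them (Benjamini-Hochberg, threshold 0.05). The script was tested on simulated data. Single genes were also compared by an exact permutation test of CPM, two-sided. Intervals are 95%. Of each role in the wider list, genes past the threshold, the 3 ligands and the gene of highest mean CPM were named. Csnk1d, Spopl and genes listed without values were named beyond this rule after their values were seen. The genes and lists were chosen with earlier results of these data known. Alternatives were DESeq2 1.42.0, other scalings, filters and tests, the replicate number as a block and each library left out.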

Additional observations from a re-analysis of the deposited data

Results flagged for a closer look

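Gli2 was flagged in both genotypes because a single library lay far above the other 3 of its group. Replicate 2 of Bbs8+/+ was at 8.21 CPM beside 2.04 to 2.71 CPM in the others, and replicate 1 of Bbs8-/- was at 10.3 CPM beside 4.19 to 5.02 CPM. These values rest on 22 and 25 counts, and Gli1 had 7 and 8 counts in the same libraries. Without replicate 2 of Bbs8+/+ the log2 fold change of Gli2 was 1.28, and without replicate 1 of Bbs8-/- it was 0.26, neither past the threshold. In all 60 groups were screened and 2 were marked, and chance alone marks about 1 group in 20.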

How the results depend on the processing

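None of the 9 Hedgehog genes passed an adjusted p of 0.05 under any of the 16 alternatives, whose lowest value was 0.112 for Kif7 without replicate 4 of Bbs8-/-. With filterByExpr 6 of the 9 were tested, since Gli3, Kif7 and Gpr161 fell below it, and DESeq2 gave no adjusted p for Gpr161. The fold changes of Hhip, Smo, Gli2, Sufu, Kif7 and Gpr161 kept their sign under every alternative that gave one. When libraries were left out or settings changed, log2 fold changes ran from -0.06 to 0.37 for Ptch1, -0.47 to 0.07 for Gli1 and -0.97 to 0.56 for Gli3, so the sign of each of these 3 changed with the setting. Of the 9 calls in the wider list, 7 held under all 16, while Scube3 and Bmp4 each held under 12. Leaving out each library gave 553 to 645 genes higher and 689 to 847 lower. The replicate numbers did not pair the libraries: same-numbered libraries correlated at -0.06 to 0.01 in their deviations from the genotype mean, and 0 of 4 pairs were over 0.1. With the replicate block, 650 genes were higher and 827 lower, and the lowest adjusted p among the 9 genes was 0.350 (Kif7). At 2389835 to 3093428 counts a library, the typical interval of a gene under 5 CPM reached past a 2-fold change.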
